A study of Mus musculus with 6 samples.

Results

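The myosin heavy chain genes *Myh1*, *Myh2*, *Myh3*, *Myh4*, *Myh6*, *Myh7*, *Myh8*, *Myh9*, *Myh10* and *Myh11* were described by name in RNA-Seq of cultures labelled as the mouse muscle cell line C2C12. These 10 genes were chosen from a list, matched by Ensembl identifier among the 23231 genes with counts in at least 1 library. C2C12 cells are mouse myoblasts that stop dividing and form myotubes once serum is lowered. All cells carried dCas9-KRAB, in which a catalytically dead Cas9 bears the KRAB repressor domain, delivered by lentivirus at a multiplicity of infection of 100 and selected with 2 μg/ml puromycin. Cells of both groups were kept in 2% horse serum, and poly(A) RNA was sequenced on day 5 of differentiation. The control group, dCas9-KRAB, had no enhancer sgRNA (3 libraries), and the dCas9-KRAB-En5 group also carried 2 sgRNAs against Myog-En5, an enhancer upstream of *Myog* (3 libraries). Their libraries are called control and En5 libraries from here on. The labels number the replicates and do not say whether they came from separate transductions, so p-values measure the spread between these libraries, which may be technical.

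A myosin heavy chain is the motor subunit of myosin II, with an actin-binding ATPase head and a coiled-coil tail. In skeletal muscle the tails pack into the thick filament of the sarcomere. Developing muscle first uses the embryonic (*Myh3*) and perinatal (*Myh8*) isoforms, and adult fibers use the fast isoforms IIx (*Myh1*), IIa (*Myh2*) and IIb (*Myh4*) or the slow isoform (*Myh7*), which is shared with the heart along with *Myh6*. *Myh11* is the smooth muscle isoform, and *Myh9* and *Myh10* encode nonmuscle myosins IIA and IIB, which serve adhesion, migration and cytokinesis in most cells.

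The libraries held between 31831093 and 73988425 counts, and a floor of 3 counts lay between 0.0405 and 0.0942 CPM (counts scaled to the same total in each library; counting error only). En5 replicate 3 stood apart, with 13991 genes listed against 17084 to 19395 in the other libraries. The targeted *Myog*, the myogenic transcription factor, had 1065, 1224 and 1118 TPM (counts per exon length, scaled to the same total in each library) in control replicates 1 to 3 and 0.379, 0 and 0 in En5 replicates 1 to 3, so its level went with each label. The labelled cell type was checked with marker lists. The summed TPM of 10 myotube markers was 16300 to 18610 in control libraries and 6.19 to 16.1 in En5 libraries. For 7 myoblast markers it was 545 to 2059 and 14.8 to 44.0. In En5 libraries the myogenic factors *Myod1* and *Myf5* (the latter named after its values were seen) had at most 0.0761 and 0.0566 TPM, whereas *Des* had 5.31 to 13.9 TPM and *Itga7*, named after its values were seen, 9.01 to 27.7 TPM. Macrophage markers were present in all 6 libraries, with a summed TPM of 6694 to 8707 in control and 13630 to 21630 in En5 over 16 genes. Of these, 9 had at least 10 TPM in every library, whereas *Mrc1* had no counts in any and *C1qa* at most 0.514 TPM (both named after their values were seen). The cells are named by their labels throughout. How far these cell type signals bear on the heavy chain values below was not tested.

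Among the 10 heavy chain genes, the embryonic isoform *Myh3* and the nonmuscle isoform *Myh9* carried almost all of the signal, and 7 genes stayed below 1 TPM in every library. *Myh3* and *Myh1* were lower in En5 cells and past both cutoffs (adjusted p no larger than 0.01, and a log2 fold change of 1 or more in size, in edgeR's quasi-likelihood test). *Myh8*, *Myh10* and *Myh9* were tested and not called. The other 5 genes had too few counts for the filter of the test. Of 14378 genes tested, 4.67% were called lower (671 genes) and 1.52% higher (219 genes), against 2 lower and 0 higher of the 5 heavy chain genes tested. With scaling to total counts only, 516 genes were lower and 70 higher, and under a block by replicate number 976 and 567, with the same 2 heavy chain genes called. DESeq2 called no heavy chain gene higher either (5.88% of its genes were), and none had an unadjusted p under 0.05 in that direction in the main edgeR fit. Under the replicate block *Myh9* had an unadjusted p of 0.0274 in edgeR's quasi-likelihood test (log2 fold change 1.23). Without the low-count filter it was 0.0408 in that test (log2 fold change 1.16). *Myh1* and *Myh8* passed the low-count filter only through the control libraries, so their share is no measure against the background.

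**Figure D1:**
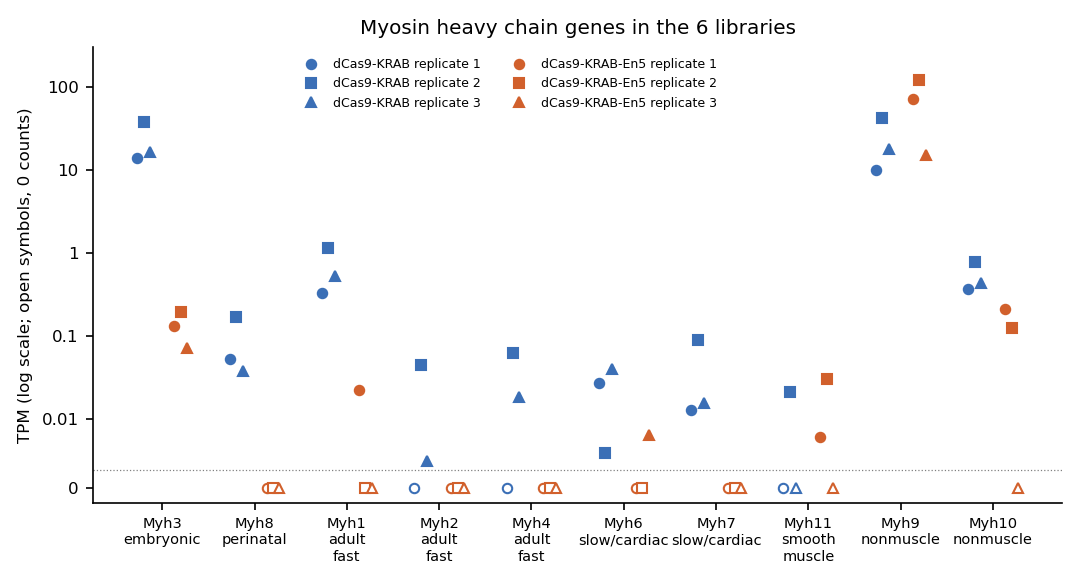
TPM (log scale) of each of the 10 myosin heavy chain genes in the 6 libraries, blue for dCas9-KRAB (control) and orange for dCas9-KRAB-En5, with a symbol per replicate and open symbols for 0 counts. *Myh3* lies between 13.8 and 37.5 TPM in control and at most 0.195 in En5, whereas the *Myh9* values of the groups overlap.

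*Myh3* (ENSMUSG00000020908), the embryonic isoform, spans bases 67078300 to 67102291 of chromosome 11 (GRCm38, plus strand). Its counts were 2260, 8506 and 4471 in control replicates 1 to 3, and 17, 20 and 10 in En5 replicates 1 to 3. In TPM these were 13.8, 37.5 and 16.5 against 0.132, 0.195 and 0.0721. Every En5 library was far below every control library, and within the control group replicate 2 was the highest. The mean TPM was 22.6 ± 13.0 (SD, n = 3) against 0.133 ± 0.0613 (SD, n = 3), a ratio of 170. The log2 fold change was -7.59 (standard error 0.61, edgeR adjusted p = 2.14e-05). The median over the 14378 genes was 0.08 on that scale. Lower RNA per cell and fewer cells of the muscle type cannot be told apart in bulk RNA.

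*Myh3* is the first gene of a cluster of 6 fast-type heavy chain genes that spans 293 kb of chromosome 11 up to *Myh13*, all on the plus strand. A smaller part of its sequence occurred in other genes than for any other gene of the cluster. Other genes held 4.76% of its transcripts' 50-base words, against 25.4% for *Myh1*, 22.9% for *Myh2*, 18.9% for *Myh4*, 12.1% for *Myh8* and 8.26% for *Myh13*. Counts of *Myh1*, *Myh2*, *Myh4* and *Myh8* are uncertain for that reason, since reads from shared words can be split or dropped in counting.

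The perinatal and adult fast isoforms were detected at far lower levels than *Myh3*. *Myh1* (ENSMUSG00000056328, chromosome 11, 67200052 to 67224575) had 57, 277 and 150 counts in control replicates 1 to 3 and 3, 0 and 0 in En5 replicates 1 to 3. All control libraries exceeded all En5 libraries. The TPM was 0.674 ± 0.436 (SD, n = 3) in control cells, and against a floor of 3 counts per library *Myh1* was at least 29.9-fold lower in En5 cells. Its fitted log2 fold change of -6.52 (standard error 1.18, edgeR adjusted p = 0.00428) depends on the prior count. The call was lost when any of the control replicates or En5 replicate 2 was left out, and with limma on log2(TPM + 1). *Myhas*, an antisense gene that shares 515 exon bases with *Myh1*, had 0 counts in all libraries.

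*Myh8* (ENSMUSG00000055775, chromosome 11, 67277124 to 67308634) had 17, 76 and 20 counts in control replicates 1 to 3 and none in the En5 libraries. The groups did not overlap, and En5 libraries were at least 7.21-fold lower against that floor. Its adjusted p of 0.0161 in edgeR's quasi-likelihood test missed the cutoff of 0.01, and with DESeq2 it was 0.000536. Without En5 replicate 3 edgeR called it too. *Myh2* had 0, 12 and 1 counts and *Myh4* had 0, 14 and 5 in control replicates 1 to 3, with none in En5 libraries. Both were at 0 in control replicate 1 as well, so their groups overlapped, and a difference was not detectable at this depth. *9430073C21Rik*, which shares 237 exon bases with *Myh2* on the opposite strand, had 14, 2 and 14 counts in control and none in En5 libraries. Whether the counting used strand is not given in the sources used here, so reads of such pairs may not be kept apart.

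Within control cells, *Myh3* made up 96.4% ± 0.501 (SD, n = 3) of the summed TPM of the 7 sarcomeric isoforms, and *Myh8* 0.346% ± 0.113. *Myh1* came between them in each of the 3 libraries. *Myh3* exceeded *Myh1* in TPM by 31.3 to 41.6 times. In En5 libraries, between 11 and 20 counts remained for all sarcomeric isoforms together, of which 0 to 3 were not from *Myh3*.

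Promoter windows of the RefSeq start sites (build GRCm38.p6, 250 bases before to 50 bases after the start) were searched on both strands for the E-box CAGCTG, the E-box CAGGTG, the TATA box TATAAA, the CCAAT box, the MEF2 site and the CArG box. Of 32851 such windows in the genome, 16.3% held CAGCTG and 20.2% held CAGGTG. The share was 13.6% for the TATA box, 37.4% for the CCAAT box, 3.19% for the MEF2 site and 1.63% for the CArG box. The windows of *Myh3*, *Myh1* and *Myh8*, the sarcomeric isoforms highest in control cells, are shown with that of *Myh9*, which stayed expressed in both groups. Capitals mark the matches.
Myh3, chr11:67078050-67078349, plus strand: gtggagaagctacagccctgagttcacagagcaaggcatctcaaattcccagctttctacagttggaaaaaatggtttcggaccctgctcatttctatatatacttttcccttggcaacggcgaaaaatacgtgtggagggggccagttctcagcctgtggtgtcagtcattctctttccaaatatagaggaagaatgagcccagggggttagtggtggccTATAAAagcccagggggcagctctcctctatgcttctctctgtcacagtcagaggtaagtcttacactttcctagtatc
Myh1, chr11:67199852-67200151, plus strand: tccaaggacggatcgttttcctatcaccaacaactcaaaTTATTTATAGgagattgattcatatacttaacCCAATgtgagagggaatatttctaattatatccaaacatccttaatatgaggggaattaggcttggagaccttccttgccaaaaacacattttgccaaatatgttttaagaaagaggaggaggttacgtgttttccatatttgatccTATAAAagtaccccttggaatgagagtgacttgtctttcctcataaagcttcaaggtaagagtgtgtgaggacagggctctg
Myh8, chr11:67276874-67277173, plus strand: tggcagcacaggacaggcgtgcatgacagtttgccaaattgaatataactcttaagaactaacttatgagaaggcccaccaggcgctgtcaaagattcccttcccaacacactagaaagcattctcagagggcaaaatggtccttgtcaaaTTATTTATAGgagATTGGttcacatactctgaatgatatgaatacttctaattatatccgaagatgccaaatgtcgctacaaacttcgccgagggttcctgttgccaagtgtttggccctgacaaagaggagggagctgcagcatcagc
Myh9, chr15:77842126-77842425, minus strand: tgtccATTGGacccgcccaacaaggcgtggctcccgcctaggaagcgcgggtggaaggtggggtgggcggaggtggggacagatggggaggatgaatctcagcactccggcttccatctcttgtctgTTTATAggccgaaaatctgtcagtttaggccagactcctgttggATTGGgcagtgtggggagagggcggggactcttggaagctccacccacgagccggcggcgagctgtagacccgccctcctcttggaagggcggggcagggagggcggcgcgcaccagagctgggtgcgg

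The *Myh3* window held a single match, TATAAA with its first base at -29 (the base before the start site is -1). The *Myh1* window held TATAAA at -32 and a MEF2 match at -211, whose letters overlap another TATAAA on the opposite strand. *Myh8* held a MEF2 match at -99 with the same overlap. *Myh4* held a MEF2 match at -182, and in these 3 genes that match was the same 10 letters, TTATTTATAG. The *Myh4* window also held CAGCTG at -67 and a CArG box at -104. *Myh1*, *Myh2*, *Myh4* and *Myh8* also shared the 14 letters ttctaattatatcc, with the first base at -160, -125, -158 and -54. Of the 32851 windows, 4 held that stretch, the windows of these 4 genes. *Myh3* did not hold it. The *Myh9* window had a GC content of 64.7%, no MEF2 match and no CAGCTG. That of *Myh10* had 62.7%, CAGCTG at -149 and CAGGTG at -247 and -2. The windows of the cluster genes ranged from 38% for *Myh1* to 48% for *Myh3*, apart from *Myh13* at 53%. A match is a description of the letters and was not tested for binding.

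Coding sequence shared by the isoforms also shows in the qRT-PCR primers of the study, whose measurements were not analysed here. The forward primers for *Myh2* and *Myh7* are the same 20 bases, which occur letter for letter in transcripts of 6 heavy chain genes (*Myh1*, *Myh2*, *Myh4*, *Myh6*, *Myh7* and *Myh8*). The forward primer for *Myh1* occurs in 5 (*Myh1*, *Myh2*, *Myh3*, *Myh4* and *Myh8*). Each reverse primer occurs in its own gene alone, and both *Myh3* primers occur in *Myh3* alone.
Myh2 and Myh7 forward: agtcccaggtcaacaagctg
Myh1 forward: gcgacagacacctccttcaa
Myh3 forward: aaaaggccatcactgacgc

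The slow and cardiac isoforms lie next to each other on the minus strand of chromosome 14, 3756 bp apart. *Myh7* had 3, 29 and 6 counts in control replicates 1 to 3 and none in En5 libraries. The groups did not overlap, but the gene was not tested with the filter, and without it the adjusted p was 0.0947 in edgeR's quasi-likelihood test. *Myh6*, the alpha isoform of the heart, had 5, 1 and 12 counts against 0, 0 and 1, and the groups overlapped. Of their 50-base words, 15.6% (*Myh7*) and 20.2% (*Myh6*) occurred in other genes, nearly all in each other. *Mhrt*, antisense to *Myh7*, had 0 counts. Among 8 cardiomyocyte markers, 3 were tested and 2 called lower (1 when any library but En5 replicate 3 was left out), with a median log2 fold change of -4.25. These were *Myl2*, the slow and ventricular regulatory light chain, which was at least 310-fold lower, and *Gata4*, with a log2 fold change of -4.25 (edgeR adjusted p = 0.00654). *Myl2* and *Gata4* passed the low-count filter only through the control libraries, so this count is no measure against the background. *Myl7*, named after its values were seen, had no counts in any library.

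The smooth muscle isoform *Myh11* (chromosome 16) had 0, 6 and 0 counts in control replicates 1 to 3 and 1, 4 and 0 in En5 replicates 1 to 3. It was near 0 in both groups, and no difference was detectable. Of 12 smooth muscle markers, 4 were tested and 3 called lower, with a median log2 fold change of -5.38. DESeq2 and the fit without En5 replicate 3 each called 5 lower, and without control replicates 1, 2 and 3 there were 0, 1 and 2. Those 3 were *Des*, *Acta2* and *Synpo2*, and *Des* and *Acta2* are also used by developing skeletal muscle. *Myocd* and *Lmod1*, named after their values were seen, had no counts in any library.

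The nonmuscle isoforms had estimates of opposite sign, and edgeR called neither. *Myh9* (ENSMUSG00000022443, chromosome 15, 77760587 to 77842175, minus strand) had 9.85, 41.9 and 17.8 TPM in control replicates 1 to 3 and 70.4, 122 and 14.9 in En5 replicates 1 to 3. Replicates 1 and 2 of En5 were above all control libraries, and replicate 3 lay within their range. The mean was 23.2 ± 16.7 (SD, n = 3) against 69.0 ± 53.4 (SD, n = 3). The log2 fold change of 1.21 (standard error 0.60, edgeR adjusted p = 0.187) was not past the cutoffs, nor was that of 1.46 without En5 replicate 3 (edgeR adjusted p = 0.0335). The summed macrophage marker TPM was 21630, 13630 and 16460 in En5 replicates 1 to 3, most of it from *Lyz2* with 13210, 6938 and 11010. Of the other markers tested, only *Itgam* (42.0, 63.3 and 3.58 TPM), *Csf1r* (505, 668 and 186), *Cd68* (740, 1071 and 621) and *Laptm5* (907, 1160 and 595) were highest in replicate 2 and lowest in replicate 3, as *Myh9* was. All the rest, the larger part of those tested, had a different order, among them *Tyrobp* (1818, 1221 and 2547 TPM), *Fcer1g* (605.5, 776.6 and 739.2) and *Cd14* (3398, 1369 and 525). All markers named here beside *Lyz2* were chosen after their values were seen. The part of these markers in the *Myh9* values was not tested.

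*Myh9* has 12.9 kb of summed exons, and the libraries differed in how much of their signal came from long genes. Over the 1013 genes with at least 9 kb of exons and a mean of at least 1 TPM, the median log2 fold change was 1.18, against -0.12 over 1997 genes under 1.5 kb. The median TPM of the long genes was 5.94 and 6.78 in En5 replicates 1 and 2, and 1.00 to 2.01 in the other 4 libraries. The *Myh9* TPM divided by that median was 13.9 ± 7.19 (SD, n = 3) in control and 14.9 ± 3.05 (SD, n = 3) in En5 libraries (exact permutation test, two-sided, p = 0.9). With a length offset in the fit, an alternative added after the values had been looked at, the log2 fold change of *Myh9* was 0.17 (standard error 0.50, adjusted p = 0.84 from the same edgeR test). The offset is fitted to the length trend of each library, so it also takes out a group difference that follows length. That value restates the place of *Myh9* near the median of the long genes and is no separate result. Whether length bears on the *Myh9* values was not tested. The values of *Myh3* and *Myh1* under that offset were -7.89 and -6.95, and both calls stood. *Myh10* had -3.74 under it (standard error 0.91, adjusted p = 0.0193 from the same edgeR test), against -2.68 in the main fit, and was called in neither.

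**Figure D2:**
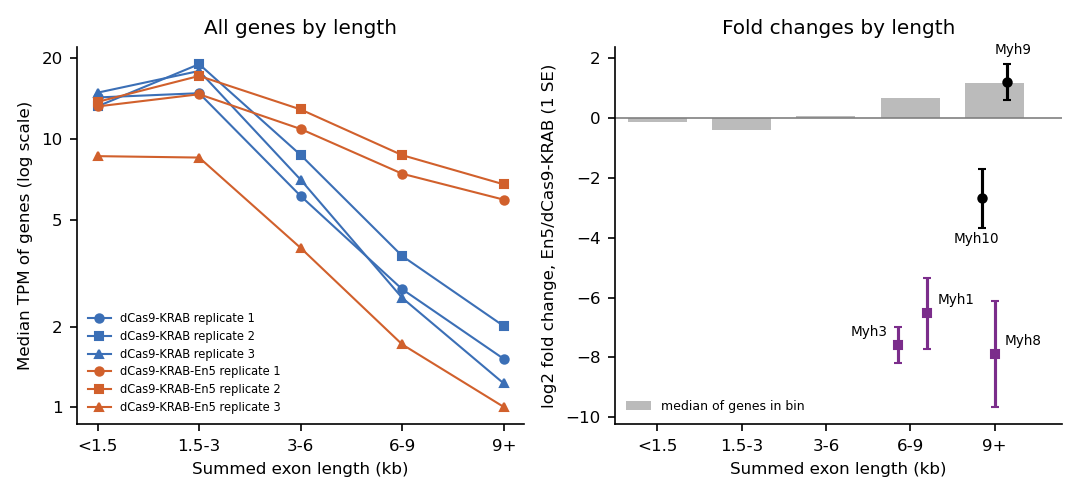
Left, the median TPM (log scale) of genes in 5 bins of summed exon length (kb) in each library; right, the median log2 fold change of the genes in each bin (grey bars) with the tested heavy chain genes as points (error bars, 1 standard error). *Myh9* at 1.21 lies at the median of its bin of 1.18, whereas *Myh10*, *Myh3*, *Myh1* and *Myh8* lie below the medians of theirs.

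*Myh10* (ENSMUSG00000020900) lies on chromosome 11 too, 1320 kb beyond the fast cluster. It had 105, 309 and 207 counts in control replicates 1 to 3 and 47, 22 and 0 in En5 replicates 1 to 3. In TPM these were 0.370, 0.789 and 0.442 against 0.212, 0.124 and 0. All control libraries were above all En5 libraries. Of the 10 genes, 5 were separated this way (*Myh3*, *Myh8*, *Myh1*, *Myh7* and *Myh10*), as were 13.9% of all genes listed. Of the 5 tested, 4 were, as were 19.7% of all genes tested. *Myh8* and *Myh7* had no counts in En5 libraries, and *Myh1* and *Myh8* passed the low-count filter only through the control libraries. These shares are therefore descriptions and no measure against the background. The mean was 0.534 ± 0.224 against 0.112 ± 0.107 (TPM, SD, n = 3 per group), but the log2 fold change of -2.68 (standard error 0.99, edgeR adjusted p = 0.0828) was not past the cutoffs. DESeq2 called it lower (adjusted p = 0.00721 there), as it did *Myh3*, *Myh1* and *Myh8*, while 8.66% of its genes were called lower.

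The balance of the nonmuscle isoforms was compared within each library. The log2 ratio of *Myh10* to *Myh9* TPM was -4.74, -5.73 and -5.33 in control replicates 1 to 3 and -8.38 and -9.94 in En5 replicates 1 and 2. It was at most -10.22 in En5 replicate 3, where *Myh10* had no counts and was set at 3 counts. The groups did not overlap, and the means differed by -4.25 (two-sided exact permutation test, p = 0.1, which is the smallest possible with 3 against 3). In control cells *Myh9* exceeded *Myh10* by 26.6 to 53.1 times in TPM, and in En5 replicates 1 and 2 by 332 and 981 times.

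**Figure D3:**
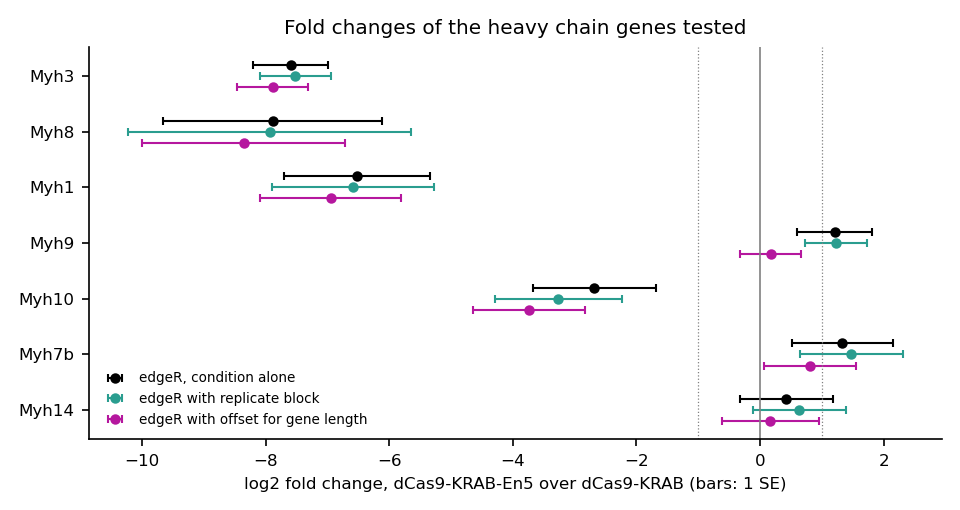
Log2 fold change (En5 over control) with 1 standard error for the 5 heavy chain genes tested and for *Myh7b* and *Myh14*, from 3 fits by edgeR; dotted lines mark the fold cutoff. *Myh3* and *Myh1* lie far below 0 in each fit, and *Myh9* moves from 1.21 to 0.17 with the offset for gene length.

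The sarcomeric isoforms made up 51.4% ± 5.77 (SD, n = 3) of the summed TPM of the 10 genes in control cells and 0.301% ± 0.196 (SD, n = 3) in En5 cells. In single libraries the share was 58.1%, 47.8% and 48.5% against 0.219%, 0.160% and 0.525%. *Myh9* held 99.6% ± 0.138 of the sum in En5 libraries. These shares depend on how length is counted, because the deposited TPM use the summed exon length, which for *Myh9* (12.9 kb) is more than its coding length of 5.88 kb and for *Myh3* (6.06 kb) is close to its coding length of 5.82 kb. The *Myh9* to *Myh3* ratio in control replicates 1 to 3 was 0.717, 1.12 and 1.08 in TPM, and 1.51, 2.36 and 2.28 in counts per kb of coding sequence. Which of these isoforms is higher in control cells therefore turned on the length used in replicate 1, and in the others *Myh9* led on both scales.

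**Figure D4:**
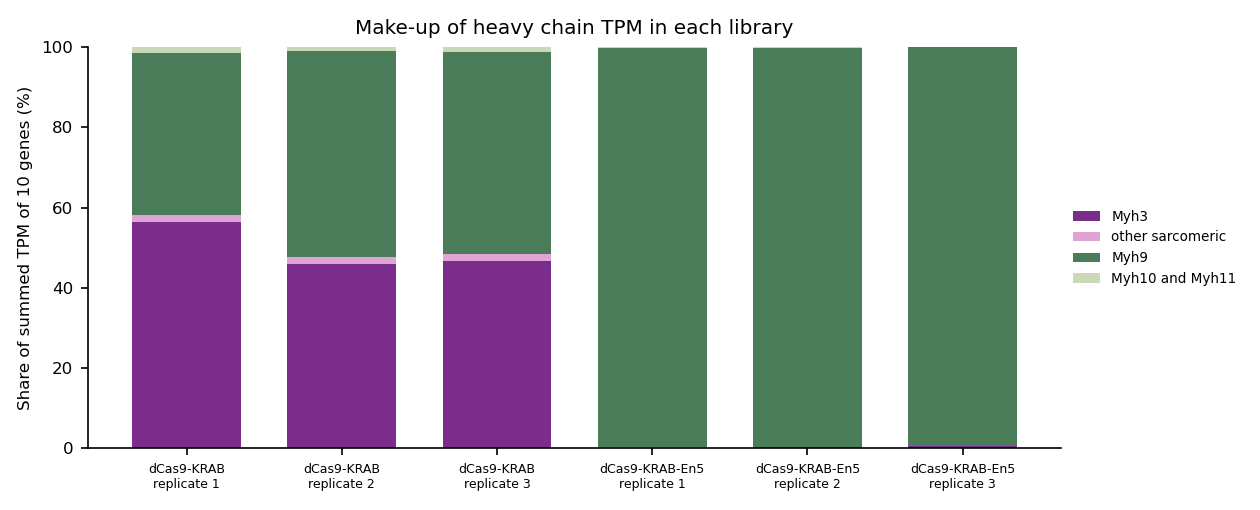
Share (%) of the summed TPM of the 10 heavy chain genes held by *Myh3*, the 6 other sarcomeric isoforms, *Myh9*, and *Myh10* with *Myh11*, in each library. *Myh3* and *Myh9* split the control bars, and *Myh9* fills 99.5% to 99.7% of each En5 bar.

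Of the other heavy chain genes, *Myh7b*, an ancient sarcomeric isoform, had 12, 156 and 130 counts in control replicates 1 to 3 and 175, 268 and 30 in En5 replicates 1 to 3. It overlaps *Trpc4ap* on the opposite strand by 37 exon bases, and a log2 fold change of 1.33 was no call (edgeR adjusted p = 0.283). *Myh14*, the nonmuscle isoform IIC, had 20, 166 and 95 counts against 55, 83 and 63, and its groups overlapped. *Myh13*, the extraocular isoform, had 9 counts in control libraries in all and none in the others, and *Myh15* had no counts.

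Proteins that build and hold the thick filament work with the sarcomeric isoforms. Of 17 thick filament partners and myosin chaperones, 16 were tested, 11 were called lower and none higher, with a median log2 fold change of -7.70 against 0.08 over all genes. DESeq2 also called 11 lower and none higher. None was higher at an unadjusted p under 0.05 either. The count called lower was 9 to 11 when an En5 library was left out, and 7, 8 and 9 without control replicates 1, 2 and 3. *Myom2*, the M-band crosslinker of fast fibers, fell from 14.9, 27.6 and 14.2 TPM to 0.0160, 0.00666 and 0, at least 1187-fold. *Mybph*, a myosin-binding protein, fell from 312, 1110 and 794 TPM to 0.122, 0.0253 and 0. *Smyd1*, a methyltransferase that acts as a myosin chaperone, was at least 340-fold lower. The 5 that were tested and not called, chosen after their values were seen, were *Myom1*, *Mybpc3*, *Unc45a*, *Hsp90aa1* and *Hsp90ab1*, and of these *Unc45a* and both *Hsp90* genes are general chaperones.

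Genes that work with nonmuscle myosin were mixed. Of 15 such genes, 15 entries were tested (*Myl12b* has 2 gene identifiers in the files, and *Limch1*, named after its values were seen, was too low), with 3 called lower, none higher and a median log2 fold change of -0.29. DESeq2 also called 3 lower and none higher, and in edgeR 2 were higher at an unadjusted p under 0.05. The called entries were *Myl12a* and both entries of *Myl12b*, the regulatory light chains of nonmuscle myosin. *Myl12a* had 98.8, 137 and 117 TPM in control replicates 1 to 3 and 26.5, 31.7 and 17.0 in En5 replicates 1 to 3, without overlap. Its log2 fold change was -2.39 (standard error 0.44, edgeR adjusted p = 0.00496). No entry was called when a control library or En5 replicate 1 or 2 was left out, and without En5 replicate 3 there were 4 lower and 1 higher.

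**Figure D5:**
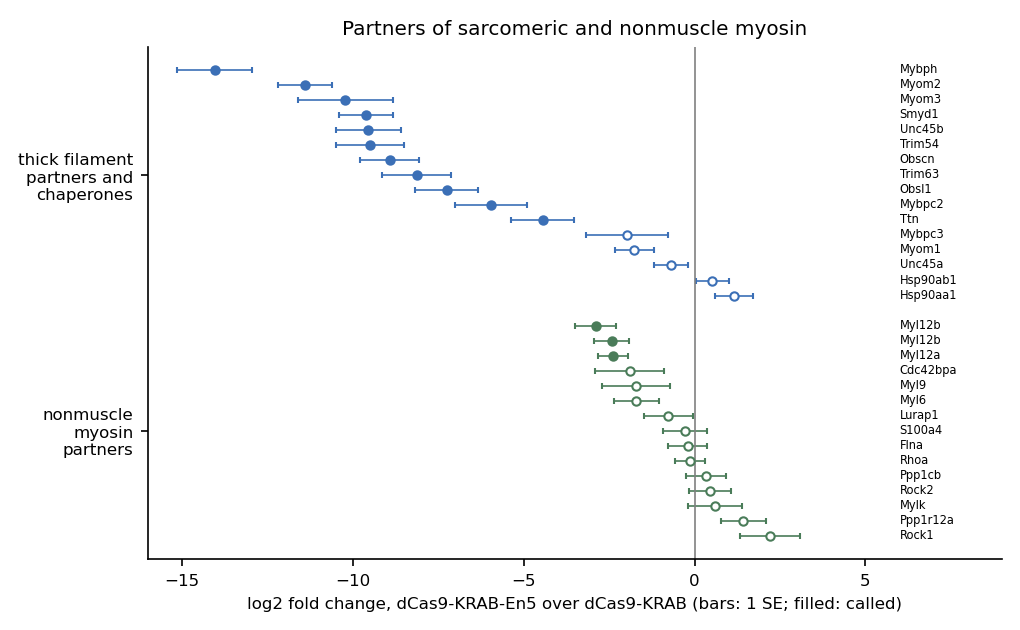
Log2 fold change (En5 over control) with 1 standard error for each tested gene of 2 lists, thick filament partners and chaperones in blue and nonmuscle myosin partners in green; filled points are called. In the thick filament list 11 of 16 points are filled, and in the nonmuscle list 3 of 15.

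Among 15 regulators of muscle fiber type and of the fast heavy chain genes, 11 were tested, 4 were called lower and none higher, with a median of -0.93. DESeq2 gave the same counts, in edgeR 2 were higher at an unadjusted p under 0.05, and without En5 replicate 3 those called higher were 2. Among them were *Myod1* (at least 972-fold), *Myog* and *Vgll2* (at least 75.9-fold), a cofactor of TEAD factors. In the same test, all 10 myotube markers were lower in the full set and without each library. That list holds the targeted *Myog*. Genes of it, and of the thick filament, cardiomyocyte, myoblast and fiber type lists, passed the low-count filter through the control libraries alone. The counts called in these lists are therefore descriptions. Of 6 tested myoblast markers, 4 were lower (median -6.26), and 1 without control replicate 1. Of 6 tested fibroblast markers, 1 was lower, *Col1a1* (median -2.07). It was 3 under the replicate block and without En5 replicate 3, 4 in DESeq2, and 0 without any other library. Of 14 tested macrophage markers, 1 was higher, *Adgre1*, with a log2 fold change of 2.68, and the median was 0.53. It was 2 under the block and in DESeq2, and 0 without any library but En5 replicate 3, without which 3 were higher and 2 lower.

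Genes whose log2(TPM + 1) ran most like that of a heavy chain gene over the 6 libraries were taken from those with a mean of at least 10 TPM. For *Myh3* they were *Myl6b*, an alkali light chain of embryonic and slow muscle (r = 0.997), *Mrps18b* (r = 0.997) and *Scx* (r = 0.997). *Myl6b* had 49.1, 108 and 72.7 TPM in control replicates 1 to 3, with the same order of replicates as *Myh3*, and 4.34, 5.56 and 4.73 in En5. For *Myh9* they were *Prpf8*, the central spliceosome protein (r = 0.999), *Larp1* (r = 0.999) and *Ubr4* (r = 0.998), and *Prpf8* ran from 8.24 to 35.8 TPM in control and from 12.6 to 120 in En5. For *Myh10* they were *Smim19* (r = 0.972), *Glul* (r = 0.968) and *Coq8a* (r = 0.967). All points share 6 libraries, their depth and the difference between groups, so these correlations are descriptions.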

How the data were processed

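RNA-Seq of 6 libraries (3 dCas9-KRAB, 3 dCas9-KRAB-En5) was used. The authors aligned 150 bp paired reads to GRCm38 with HISAT2 2.2.1, used featureCounts for gene counts, and deposited counts and TPM. The annotation release and the strand setting are not given in the sources used here. Genes absent from a library were taken as 0 counts. Symbols were matched for 23155 of 23231 genes, and exon lengths and positions were taken from GENCODE M21.

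Counts were compared with edgeR 4.0.16 (R 4.3.3, TMM, filterByExpr with minimum count 10 and total 15, glmQLFit, glmQLFTest, Benjamini-Hochberg over 14378 genes). The fit was tested on simulated counts. The standard error is the size of the log2 fold change over the root of F. DESeq2 1.42.0, limma 3.58.1 (log2(TPM + 1) and log2(TPM + 0.1)), other scalings and filters, a replicate block and leaving out each replicate were alternatives. Permutation tests were exact (scipy). Replicate numbers come from the sample labels. Deviations of same-numbered libraries from their group means correlated at 0.26, 0.21 and 0.29 across genes, so the numbers were treated as pairs in the block. Differently numbered libraries correlated at -0.34 to -0.05. Deviations cancel within a group, so these correlations are not independent, and the labels do not state pairs. The block is an alternative for that reason.

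The genes and lists were chosen with earlier results of these data known. Named outside the 10 genes were the other heavy chain genes, *Myog*, annotated genes that overlap a member, the 3 genes most like *Myh3*, *Myh9* and *Myh10*, and at most 3 per list by smallest adjusted p. Markers and partners given for being absent, low or present and the other genes so marked were chosen after their values were seen.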

Additional observations from a re-analysis of the deposited data

How the results depend on the processing

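*Myh3* was called lower in every alternative, with a log2 fold change between -7.89 and -4.25 (smallest in limma on log2(TPM + 1)), and *Myh9* was higher and not called in any, from 0.17 to 1.79. None of the 5 heavy chain genes tested reversed its direction in the alternatives run for it. The number called lower, 2 with edgeR, was 4 with DESeq2 and 1 with at least 10 counts in every library or limma on log2(TPM + 1), and 1 to 3 when 1 replicate was left out. *Myh1* had an adjusted p from 2.55e-07 to 0.04 over its alternatives, *Myh8* from 0.000536 to 0.437 and *Myh10* from 0.00721 to 0.216. Under the replicate block 1543 genes were called in place of 890, and the block changed the call of none of these 5. The total was 586 with total counts only, 2198 without the low-count filter, 544 with at least 10 counts in every library, 2390 with DESeq2, 514 with limma on log2(TPM + 1) and 2449 at an adjusted p of 0.05. It ran from 222 to 3921 when 1 replicate was left out, lowest without dCas9-KRAB replicate 1 and highest without dCas9-KRAB-En5 replicate 3. Counts in place of TPM gave a sarcomeric share of 33.6% in dCas9-KRAB cells, since the lengths no longer enter. The log2 ratio of *Myh10* to *Myh9* differed between groups by -1.79 with a pseudocount of 1 TPM (exact permutation test, p = 0.2). The cause of the other shifts was not tested. Depth limits *Myh2*, *Myh4*, *Myh6*, *Myh7* and *Myh11*, which had at most 29 counts in any library.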

Other observations

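The heavy chain was scarce beside the other contractile genes in dCas9-KRAB cells. *Mylpf*, the fast regulatory light chain, had 8436 ± 1350 TPM (SD, n = 3), 205 to 727 times the TPM of *Myh3* in the same library. *Acta1*, skeletal actin, had 128 to 209 times and *Tnnc1*, slow troponin C, 70.9 to 231 times. *Myom2*, which with 8.85 kb of exons is longer than *Myh3*, had 0.737 to 1.08 times. The exons of *Mylpf*, *Acta1* and *Tnnc1* sum to 1.04 to 1.54 kb. Whether transcript length bears on these ratios was not tested. *Mylpf*, *Acta1* and *Tnnc1* were chosen after their values were seen.

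*Myh9* was also set against *Flna*, filamin A, another long actin-binding gene, chosen after its values were seen. Their TPM ratio was 0.735, 0.648 and 0.575 in control replicates 1 to 3, against 1.68, 1.88 and 1.29 in the En5 libraries. The groups did not overlap (two-sided exact permutation test, p = 0.1, which is the smallest possible with 3 against 3). Because *Flna* was picked with its values known, no conclusion about *Myh9* is drawn from that test. *Flna* had a log2 fold change of -0.20, below the median of 1.18 over the genes with at least 9 kb of exons. Relative to the median TPM of those long genes, the mean *Myh9* ratio was 13.95 in control and 14.89 in En5 libraries.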
